A study of Macaca fascicularis with 6 samples.

Results

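The 10 genes RAMP3, RXFP1, ACVRL1, ADGRL2, SLCO2A1, SULT1C4, FOXF1, AFDN, ARHGAP29 and AFAP1L1 were followed in single-cell libraries of cynomolgus monkey (Macaca fascicularis) lung, inside and outside endothelial cells and in both conditions. They were picked from 28623 gene rows, of which 21095 carry a symbol, because their counts over the whole library were higher in asthma. They were put together as capillary genes, with earlier results of these data known. The asthma against control values and the capillary levels below are therefore a description of that choice and carry no test. Each symbol matched exactly 1 row. All 10 had a larger share of the UMIs in each asthma library than in any control library, and 8 of the 10 had their highest level in endothelial cells with capillary markers. AFAP1L1 had no clear order between capillary and lymphatic endothelial cells. AFDN did not keep to the name of a capillary gene. Its levels in MC-like and capillary cells overlapped, and their order differed between libraries. MC-like cells were named from markers such as MSLN, ITLN1 and UPK3B. The study calls cells with these markers mesenchymal, and that identity was not tested here.

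Lung capillaries are lined by endothelial cells that exchange gas with the alveoli and control the passage of fluid and leukocytes into the tissue. They read vasoactive peptides, such as adrenomedullin, and blood-borne BMP ligands through surface receptors, take up and break down prostaglandins that pass through the lung, and hold a barrier of adherens and tight junctions anchored to actin and tuned by the small GTPases Rap1 and RhoA. Several of the 10 genes act at these steps.

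Each of the 6 libraries came from 1 male monkey of 3 to 5 years. Control replicates 1, 2 and 3 received saline, and asthma replicates 8, 10 and 11 were sensitized with Ascaris suum antigen at 1 mg/mL in adjuvant under the skin and then challenged intranasally at 10 mg/mL, last in week 11. All monkeys underwent the same lung function tests with methacholine, and the tissue of both groups was cut, digested with collagenase and papain, freed of red blood cells and dead cells and loaded on the 10x Chromium system. A cell is therefore seen here only if it survived digestion and capture. Each monkey was loaded on its own, and no samples were pooled.

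The 3′ assay tags every RNA molecule with a unique molecular identifier (UMI), and the values count molecules, not reads. They are not scaled by gene length, and levels are compared here within a gene and not between genes. The control libraries (replicates 1, 2 and 3, in this order throughout) held 40556102, 33210436 and 32240293 UMIs, and the asthma libraries (replicates 8, 10 and 11) 41184329, 41489879 and 29014556. After quality control (over 500 and under 5000 genes, 500 UMIs or more, mitochondrial UMIs of 25% or less), 24235 of 35133 barcodes were kept as cells, 4339, 3200 and 3902 in control and 4136, 4620 and 4038 in asthma. Libraries shared 137 barcode sequences over all barcodes and 75 among the cells, but 0 among endothelial cells.

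Cells were clustered without the 10 genes, and clusters were named X-like from fixed marker lists that also left them out. A total of 1014 cells were EC-like (endothelial), namely 676 capillary, 296 larger-vessel and 42 lymphatic EC-like cells. The names were checked against their markers. CA4, the carbonic anhydrase of the capillary surface, had 824 CPM (UMIs of the gene per 1000000 UMIs of those cells) in capillary EC-like cells against 2.57 outside EC-like cells, HPGD, which breaks down prostaglandins, had 5082 against 14.8, and the VEGF receptor KDR had 792 against 4.41. VWF and CPE were highest in larger-vessel EC-like cells, at 4498 and 7230 CPM, and MMRN1 and PROX1 in lymphatic EC-like cells, at 2793 and 166. Of the markers with a gene row, 14 of 16 capillary, 12 of 15 larger-vessel and 8 of 9 lymphatic ones were highest in the cells they mark. This check set the EC-like subtypes against each other and against all other cells pooled, not against each other class. Of the capillary markers FCN3 was higher in larger-vessel EC-like cells (5601 against 4043 CPM) and EMCN in lymphatic EC-like cells (541 against 109). Of the larger-vessel markers EFNB2 and SELE were higher in capillary EC-like cells (707 against 400 and 10.1 against 6.64) and NR2F2 in lymphatic EC-like cells (1093 against 480), and the lymphatic marker TFF3 was at 0 in all EC-like cells.

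Summed over all barcodes of a library, the 4 receptors and co-receptors were all higher in asthma. Levels are CPM (UMIs of a gene per 1000000 UMIs of the library), with mean ± SD over n = 3 monkeys a group. The log2 differences (± SE) are from the edgeR fit with TMM scaling. Their SE is the absolute log2 difference divided by the square root of the test's F statistic. It is not a spread between monkeys. A sum over a library cannot tell more cells of a type from more RNA per cell. The replicates are separate monkeys with 1 library each, so the spread holds both animal and library differences.

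RAMP3 (ENSMFAG00000045498), which assembles with the calcitonin receptor-like receptor into a receptor for adrenomedullin, had 3.72, 3.70 and 3.91 CPM in the control libraries and 56.5, 54.1 and 109 in the asthma libraries. The control libraries lay within a narrow band, all 3 asthma libraries were far above them, and asthma replicate 11 held about as much as the other two asthma libraries together. The means were 3.78 ± 0.113 and 73.4 ± 31.3, a log2 difference of 4.15 ± 0.31.

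RXFP1 (ENSMFAG00000045017), the receptor of relaxin, had the fewest UMIs of the 10 genes, with 5, 7 and 8 UMIs in the control and 94, 102 and 117 UMIs in the asthma libraries. These are 0.123, 0.211 and 0.248 against 2.28, 2.46 and 4.03 CPM. The groups did not overlap, and the control values rest on 20 UMIs in all. ACVRL1 (ENSMFAG00000039766), the type I receptor ALK1 that binds BMP9, had 18.2, 18.7 and 15.6 CPM in control and 46.9, 44.1 and 53.0 in asthma. Its log2 difference of 1.32 ± 0.15 was the smallest of the 10. ADGRL2 (ENSMFAG00000035421), the adhesion G protein-coupled receptor latrophilin 2, had 7.91, 6.81 and 9.49 in control and 38.9, 43.6 and 62.0 CPM in asthma, a log2 difference of 2.46 ± 0.20.

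The transporter and the enzyme were also higher in all asthma libraries. SLCO2A1 (ENSMFAG00000043043), which carries prostaglandins into the cell, had 0.666, 0.482 and 0.558 CPM in control and 3.84, 4.89 and 4.65 in asthma, with means of 0.569 ± 0.0924 and 4.46 ± 0.554. SULT1C4 (ENSMFAG00000039337), a cytosolic sulfotransferase, had 0.986, 0.903 and 0.837 in control and 8.13, 17.0 and 20.4 CPM in asthma. The groups did not overlap for either gene, and for SULT1C4 asthma replicate 8 stayed well below asthma replicates 10 and 11. The log2 differences were 2.84 ± 0.29 and 3.93 ± 0.41.

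FOXF1 (ENSMFAG00000039933), a forkhead transcription factor needed for lung vessels to form, had 2.07, 2.74 and 4.28 CPM in control and 22.4, 21.1 and 26.3 in asthma. The asthma libraries lay close together, at a mean of 23.3 ± 2.70 against 3.03 ± 1.13, a log2 difference of 2.84 ± 0.24.

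The 3 genes of junctions and the cytoskeleton were also higher in asthma. AFDN (ENSMFAG00000044776), the actin-binding protein afadin of adherens junctions, had 32.2, 25.4 and 41.3 CPM in control and 100.5, 98.8 and 75.9 in asthma. The groups were apart, with asthma replicate 11 the lowest of the asthma libraries, as in none of the other 9 genes. The means were 33.0 ± 7.93 and 91.7 ± 13.8, a log2 difference of 1.37 ± 0.19. ARHGAP29 (ENSMFAG00000043826), a GTPase-activating protein for RhoA that acts below Rap1, had 16.9, 15.3 and 27.7 in control and 61.1, 68.3 and 74.3 CPM in asthma, and AFAP1L1 (ENSMFAG00000041048), an actin filament-associated protein, had 1.33, 1.48 and 1.92 against 7.87, 6.29 and 6.69. Both sets of libraries were apart, with log2 differences of 1.66 ± 0.20 and 2.02 ± 0.21.

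**Figure D1:**
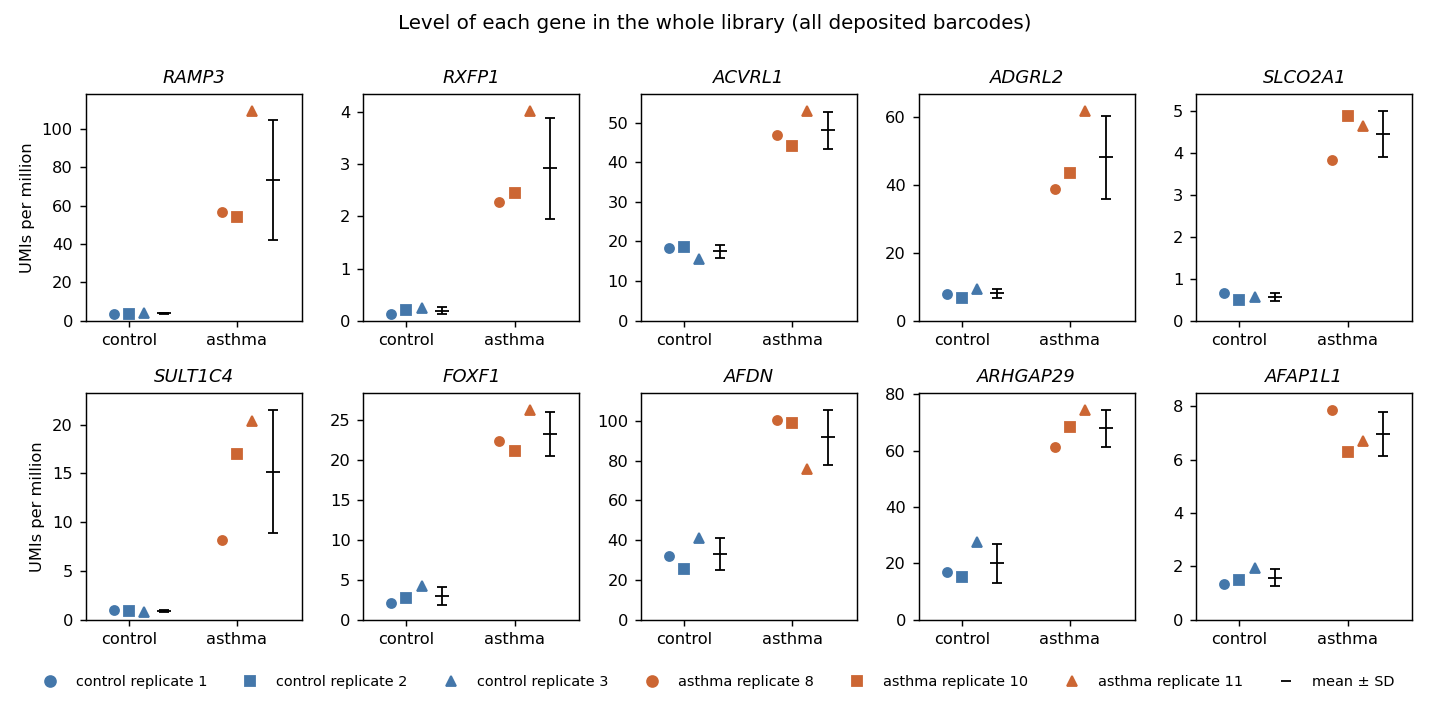
CPM over the UMIs of the library (vertical axis, linear, one scale per gene) of each of the 10 genes in the 3 control and 3 asthma libraries, all barcodes summed, 1 point per library, with bars for the mean ± SD. For every gene the asthma points sit above the control points, with the widest gap for RAMP3 (3.70 to 3.91 against 54.1 to 109) and a narrower one for ACVRL1 and AFDN.

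Over all 14769 genes tested in this fit, 10.3% had every asthma library above every control library and 0.0406% passed the test (edgeR's quasi-likelihood test, Benjamini-Hochberg adjusted p under 0.05 and absolute log2 fold change over 0.25). Of the 10 genes, 10 showed the first pattern and 3 (RAMP3, ADGRL2 and FOXF1) the second. Since the same contrast chose them, nothing is read from these counts. The other genes that passed were KDR, AQP1 and COL4A2 (the last, in none of the gene lists, is named because only 6 genes passed), and 0 genes fell, with 1827 genes at an unadjusted p under 0.05. With DESeq2 all 10 of the genes and 719 genes in all passed (3.29%, with 574 or 2.63% up and 145 down), and in edgeR none of the 10 passed once control replicate 1, 2 or 3 or asthma replicate 10 was left out. The calls over all genes were then 0, 1, 0 and 0, and 43 without asthma replicate 11.

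The share of endothelial cells, which does not use the 10 genes, was measured next. EC-like cells were 45, 34 and 99 in the control libraries and 256, 235 and 345 in the asthma libraries. Capillary EC-like cells were 12, 13 and 9 against 178, 186 and 278, which are 0.277%, 0.406% and 0.231% of the cells of a control library and 4.30%, 4.03% and 6.88% of an asthma library. The lowest asthma share was thus far above the highest control share, and the means of 0.304 ± 0.0911% and 5.07 ± 1.58% differed 16.7-fold. The exact permutation test (two-sided, 3 against 3 libraries) gave p = 0.1 (0.167 after adjustment over 5 shares), which is the smallest p it can give in this design.

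The other endothelial subtypes did not show this gap. Larger-vessel EC-like cells numbered 29, 14 and 80 in control and 71, 45 and 57 in asthma (exact permutation p = 0.7), and lymphatic EC-like cells 4, 7 and 10 against 7, 4 and 10 (exact permutation p = 0.7), so that both groups overlapped in each subtype. All EC-like cells together made up 1.55 ± 0.859% of control and 6.61 ± 1.77% of asthma cells and 1.40 ± 0.981% and 3.39 ± 0.632% of the UMIs of the cells (exact permutation p = 0.1 for each). The groups overlapped in this share of UMIs when cells with more than 10% mitochondrial UMIs were left out (exact permutation p = 0.2). The share of UMIs also leaned on control replicate 3, at 0.879%, 0.796% and 2.54% in the control libraries. Without that library the control mean was 0.838%, and the means differed 4.05-fold in place of 2.42-fold. Capillary EC-like cells had medians of 2100.5, 1922 and 1349 UMIs in control and 2690.5, 3363.5 and 2164.5 in asthma, so they were also shallower in control.

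**Figure D2:**
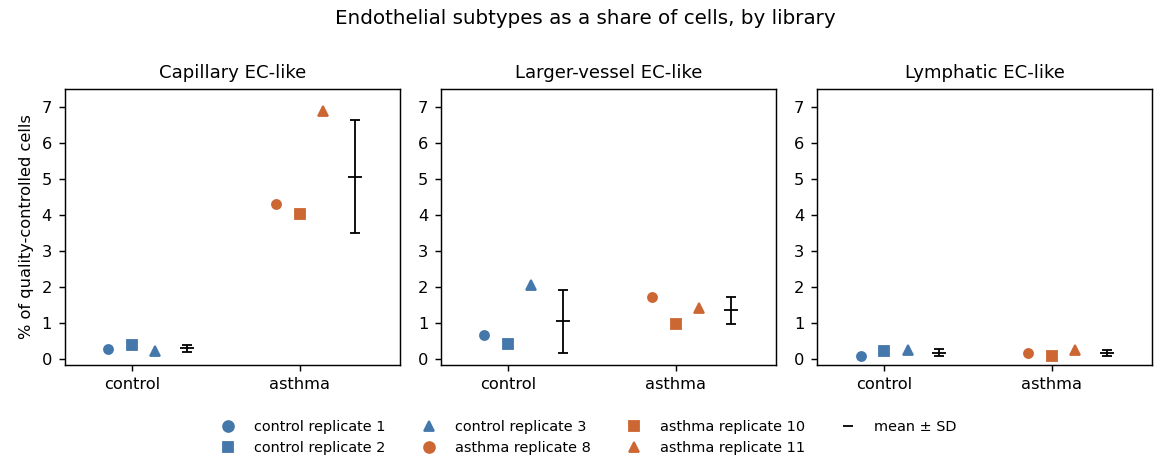
Share of quality-controlled cells (percent, linear axis) that are capillary, larger-vessel or lymphatic EC-like in each of the 6 libraries, 1 point per library, with bars for the mean ± SD. Capillary EC-like shares span 0.231% to 0.406% in control and 4.03% to 6.88% in asthma, while the shares of the other 2 subtypes overlap between the groups.

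Across cell classes, UMIs of the 10 genes were summed by class in each library that had at least 10 cells of the class (mean CPM over the UMIs of the class ± SD over libraries of both groups). This is a description with no test. RAMP3 had 3004 ± 587 in capillary EC-like cells (5 libraries), followed by lymphatic EC-like cells at 629 ± 117 (2 libraries) and larger-vessel EC-like cells at 89.8 ± 68.8 (6 libraries), and the ranges of the 3 subtypes did not overlap. ACVRL1 was shared more widely among vessels, with 1314 ± 301, 456 ± 203 and 187 ± 31.4 in capillary, larger-vessel and lymphatic EC-like cells, each range above the next. RXFP1 had 123 ± 27.4 in capillary and 16.1 ± 17.0 in larger-vessel EC-like cells and was listed at 0 in lymphatic EC-like cells.

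ADGRL2, FOXF1 and ARHGAP29 had their second highest level in SMC2-like cells, which carry pericyte markers such as PDGFRB. ADGRL2 was at 1787 ± 398 CPM in capillary EC-like and 634 ± 252 in SMC2-like cells, FOXF1 at 750 ± 268 and 255 ± 38.0, and ARHGAP29 at 1319 ± 247 and 737 ± 71.6. The ranges of these 2 classes did not overlap for any of the 3 genes. SMC2-like cells reached 10 cells only in asthma replicates 10 and 11, so these second values describe 2 asthma libraries.

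For SULT1C4, SLCO2A1 and AFAP1L1 the ranges of the first 2 classes overlapped over the libraries of both groups. SULT1C4 was at 644 ± 223 in capillary EC-like and 509 ± 214 in SMC2-like cells, with 123 ± 76.6 in a stromal sub-cluster led by SOSTDC1. SLCO2A1 ranged from 75.4 to 218 in capillary and from 15.4 to 86.7 CPM in larger-vessel EC-like cells, and all other classes were at 3.62 or lower. Within each group its ranges were apart, at 75.4 to 112 against 15.4 to 57.5 in control and 138 to 218 against 39.6 to 86.7 in asthma. AFAP1L1 was at 211 ± 33.5 in capillary (5 libraries) and 189 ± 10.2 in lymphatic EC-like cells (control replicate 3 and asthma replicate 11). In those 2 libraries it was higher in lymphatic than in capillary EC-like cells, at 196 against 142 and 181 against 170 CPM, so no order is given. It was at 83.5 ± 53.9 in larger-vessel EC-like cells.

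AFDN had no clear first class. Its level was 556 ± 139 in MC-like cells (6 libraries), 516 ± 67.7 in capillary EC-like cells and 428 ± 56.8 in larger-vessel EC-like cells, and all 3 ranges overlapped. The capillary mean leaves out control replicate 3 (923 CPM in 9 cells). Within libraries AFDN was higher in capillary than in MC-like cells in control replicates 2 and 3 and asthma replicate 8, and lower in the other 3. In MC-like cells AFDN was at 520, 452 and 566 in control and 437, 542 and 821 CPM in asthma, so the groups overlapped there too.

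**Figure D3:**
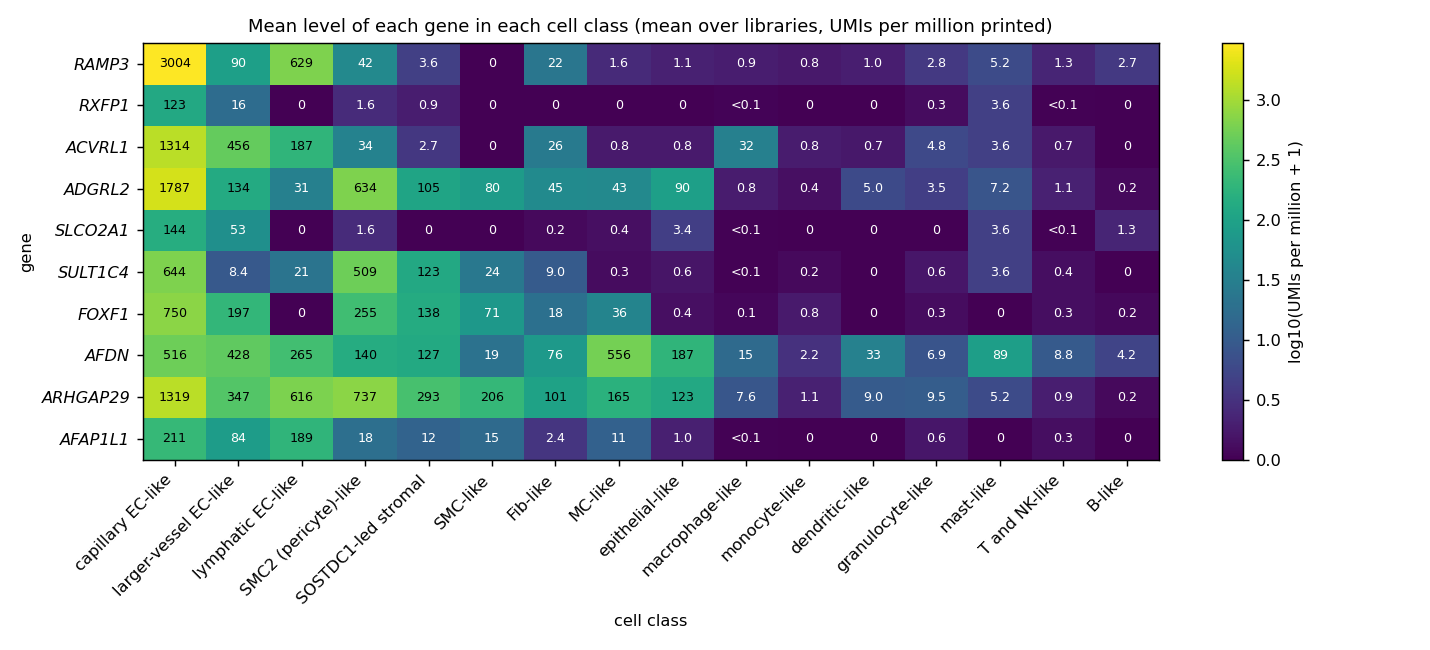
Mean CPM over the UMIs of the class (printed, with the colour on a log10 scale after adding 1) of the 10 genes in each cell class, over libraries with at least 10 cells of the class. The capillary EC-like column holds the highest mean for 9 genes, of which AFAP1L1 (211 against 189 in lymphatic EC-like cells) has no clear order within libraries, and AFDN has 556 in MC-like and 516 in capillary EC-like cells, with ranges that overlap.

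The share of cells with at least 1 UMI was taken in capillary EC-like cells and in a background class. RAMP3 was found in 96.4% of capillary EC-like cells and 0.364% of T and NK-like cells, taken here as the background class, at median depths of 2612 and 3659 UMIs. ACVRL1, ADGRL2, ARHGAP29 and FOXF1 were found in 89.8%, 88.3%, 86.4% and 74.4% of capillary EC-like cells and in 0.315% or fewer of T and NK-like cells. SULT1C4 was found in 54.1%, AFAP1L1 in 39.2%, SLCO2A1 in 35.4% and RXFP1 in 28.0%, all with 0.118% or fewer of T and NK-like cells. AFDN was found in 69.8% and 2.84%. Even in T and NK-like cells RAMP3 was at 0.146, 0 and 0.126 CPM in control and 1.43, 0.747 and 5.41 in asthma. The part of free RNA in these values was not tested.

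The difference between the group means over the whole library was then divided among the cells that carried the UMIs. EC-like cells held 85.7% of the difference for RAMP3, 86.2% for RXFP1, 84.9% for SLCO2A1, 82.5% for ACVRL1, 73.3% for AFAP1L1, 70.2% for ADGRL2, 69.3% for SULT1C4 and 61.7% for FOXF1. For ARHGAP29 it was 46.4% and for AFDN 16.7%. The median over the 10 genes was 71.8%. Capillary EC-like cells alone held 84.2% for RAMP3, 78.2% for RXFP1, 74.0% for ACVRL1, 56.4% for FOXF1 and 16.3% for AFDN, so most of the endothelial part was capillary.

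The 3 asthma libraries, each set against the control mean, gave like values for RAMP3 (85.5%, 87.5% and 84.9% in EC-like cells for asthma replicates 8, 10 and 11) and FOXF1 (61.5%, 65.3% and 59.0%). They gave unlike values for others. For SULT1C4 the share was 80.3%, 85.4% and 52.0%, and asthma replicate 11 held 125 SMC2-like cells against 7 and 25 in asthma replicates 8 and 10. The summed level of the 11 SMC2 markers, of which PDGFRB was the most abundant and none was at 0, was 20.7, 28.3 and 49.8 CPM in control and 68.1, 59.5 and 306 in asthma. SMC2-like cells held 10.4% of the SULT1C4 difference, and their part in it beyond this was not tested.

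For AFAP1L1 the endothelial share was 53.6%, 84.6% and 87.1%, and for AFDN 10.5%, 11.2% and 35.0%. MC-like cells numbered 31, 46 and 49 in control and 267, 201 and 30 in asthma, so asthma replicate 11 resembled the control libraries there. The summed level of the 12 MC markers with a row, ITLN1 being the most abundant and none at 0, was 1277, 1629 and 1455 CPM in control and 9932, 7780 and 756 in asthma. MC-like cells held 26.1% of the difference of AFDN, 12.6% of that of ARHGAP29, 9.8% of that of AFAP1L1 and 7.1% of that of FOXF1.

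Barcodes that failed quality control held a further 34.8% of the AFDN difference and 15.1% of that of ARHGAP29. For AFDN most of it lay in barcodes with 5000 genes or more, which gave 4.83, 3.22 and 8.65 CPM of the library in control and 32.7, 34.6 and 5.17 in asthma. The 2 high libraries are the 2 with many MC-like cells, but which cells these barcodes hold was not tested. Epithelial-like cells held 12.8% of the AFDN, 9.0% of the ARHGAP29 and 8.0% of the ADGRL2 difference. The summed level of the 18 epithelial markers, led by SFTPC, overlapped between the groups (11981, 2698 and 4772 CPM in control and 5010, 9419 and 15173 in asthma).

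**Figure D4:**
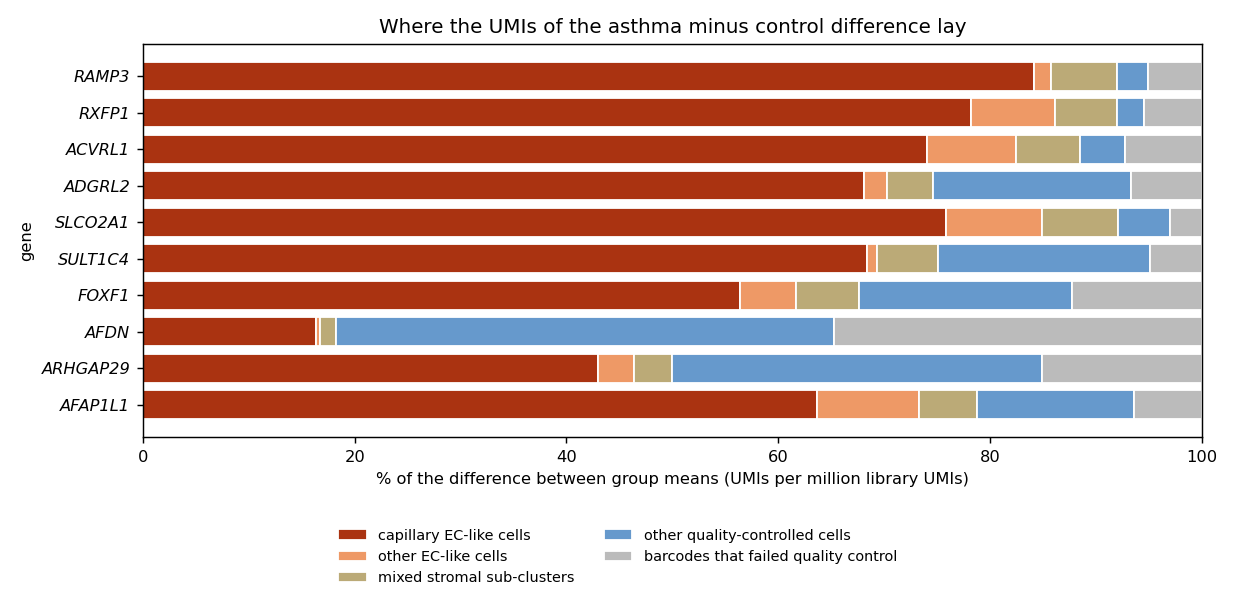
Difference between the asthma and control means of each gene over the whole library, divided by the cells that carried the UMIs (percent of the difference, stacked to 100%). Capillary EC-like cells hold 84.2% for RAMP3 and more than any other compartment for 9 genes, but 16.3% for AFDN.

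For capillary EC-like cells this part was divided again, into what follows from their share of all UMIs and what follows from the level per capillary UMI (each at the mean of both groups of the other), a division added after the data were seen. The part for the share of UMIs was 73.9% of the whole-library difference for RAMP3, 86.3% for RXFP1 and 76.7% for ACVRL1. It was 75.3% for ADGRL2, 72.3% for SLCO2A1, 68.4% for SULT1C4 and 65.2% for FOXF1. For AFAP1L1, ARHGAP29 and AFDN it was 62.7%, 48.7% and 17.3%. The part for the level per capillary UMI was 10.3% for RAMP3 and 3.50% for SLCO2A1. For the other 8 genes it ran from -8.78% (FOXF1) to 0.946% (AFAP1L1). These parts use the mean of all 3 control libraries, control replicate 3 with its 9 capillary EC-like cells included. Without that library and without TMM scaling, the mean level per capillary UMI of ACVRL1 was 1262 CPM in control and 1350 in asthma. It was 117 and 126 for RXFP1 and 473 and 545 for AFDN. The mean was lower in asthma for ADGRL2, SULT1C4, FOXF1, ARHGAP29 and AFAP1L1. The sign for these genes turned with TMM scaling, so no direction is read. The groups overlapped for all 8 genes on this scale. The mix of capillary sub-clusters enters the level as well. Capillary EC-like cells held 0.104%, 0.108% and 0.0513% of the UMIs of control cells and 1.71%, 2.03% and 2.89% of those of asthma cells. With control shares this small, the share part is bound to be the larger unless the control level is near 0. No cause is read from these parts.

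Within capillary EC-like cells, the level of each gene was then set side by side. These cells fell into a sub-cluster led by SEMA3G and one led by ACE and EDNRB, and the SEMA3G-led cells were 4 of 12, 0 of 13 and 3 of 9 in control and 78 of 178, 70 of 186 and 187 of 278 in asthma. Several of the 10 genes differed in level between the sub-clusters, so their mix enters the values, and its part was not tested. Control replicate 3, with 9 such cells, was left out of the fit and is given here in last place of the control values. RAMP3 had 2425, 2489 and 2911 CPM of the capillary UMIs in control and 3690, 2874 and 3542 in asthma. Without control replicate 3 all asthma libraries were above the control libraries, and with it the lowest asthma library was below the highest control library. SLCO2A1 rested on 4, 2 and 4 UMIs in control and 91, 143 and 101 in asthma, which are 112, 75.4 and 284 against 176, 218 and 138 CPM. It too was above in all asthma libraries only without control replicate 3, whose value was the highest of the 6. Without that library the log2 differences were 0.73 ± 0.32 for RAMP3 and 1.15 ± 0.54 for SLCO2A1, in a fit in which the median of all genes was 0.31.

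The other 8 genes overlapped between the groups on this scale with or without control replicate 3, so that with it all 10 overlapped. ACVRL1 was at 864, 1659 and 1704 in control and 1421, 1433 and 1194 CPM in asthma. ADGRL2 was at 1533, 2451 and 1775 against 1768, 1754 and 1429. FOXF1 was at 474, 1131 and 994 against 882, 734 and 529. In each of these the control libraries spread more widely than the asthma libraries and enclosed them in part or whole.

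SULT1C4 was at 558, 867 and 284 in control and 491, 894 and 409 CPM in asthma. ARHGAP29 was at 1199, 1697 and 1633 against 1169, 1435 and 1093, AFAP1L1 at 251, 189 and 142 against 209, 238 and 170, and AFDN at 418, 528 and 923 against 493, 540 and 602. RXFP1 rested on 3, 4 and 3 UMIs in control, which are 83.6, 151 and 213 CPM, against 145, 110 and 124 in asthma. No order of the groups could be seen at these depths.

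The fit over 7126 genes of these cells (2 control and 3 asthma libraries) called 0 genes in either direction with edgeR, with 590 genes at an unadjusted p under 0.05, and DESeq2 called 1 up and 4 down. In it 29% of all genes had every asthma library above both control libraries, and so had 3 of the 10 genes after TMM scaling (RAMP3, SLCO2A1 and AFDN). Every asthma library was below both control libraries for 9.36% of all genes and 0 of the 10. The median log2 difference of the 10 genes was 0.29 and that of all genes 0.31, and with totals in place of TMM the medians were 0.01 and 0.05. The sign of the log2 difference of ADGRL2, ARHGAP29, FOXF1, SULT1C4 and AFAP1L1 turned in 3 to 8 of 11 alternatives, so no direction is given for them. In simulated data, 37.2% of genes changed by a log2 of 2 and 0% of those changed by 1 were recovered at this depth. The simulation used a fixed dispersion, not the spread between these monkeys, so it does not give the power here.

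**Figure D5:**
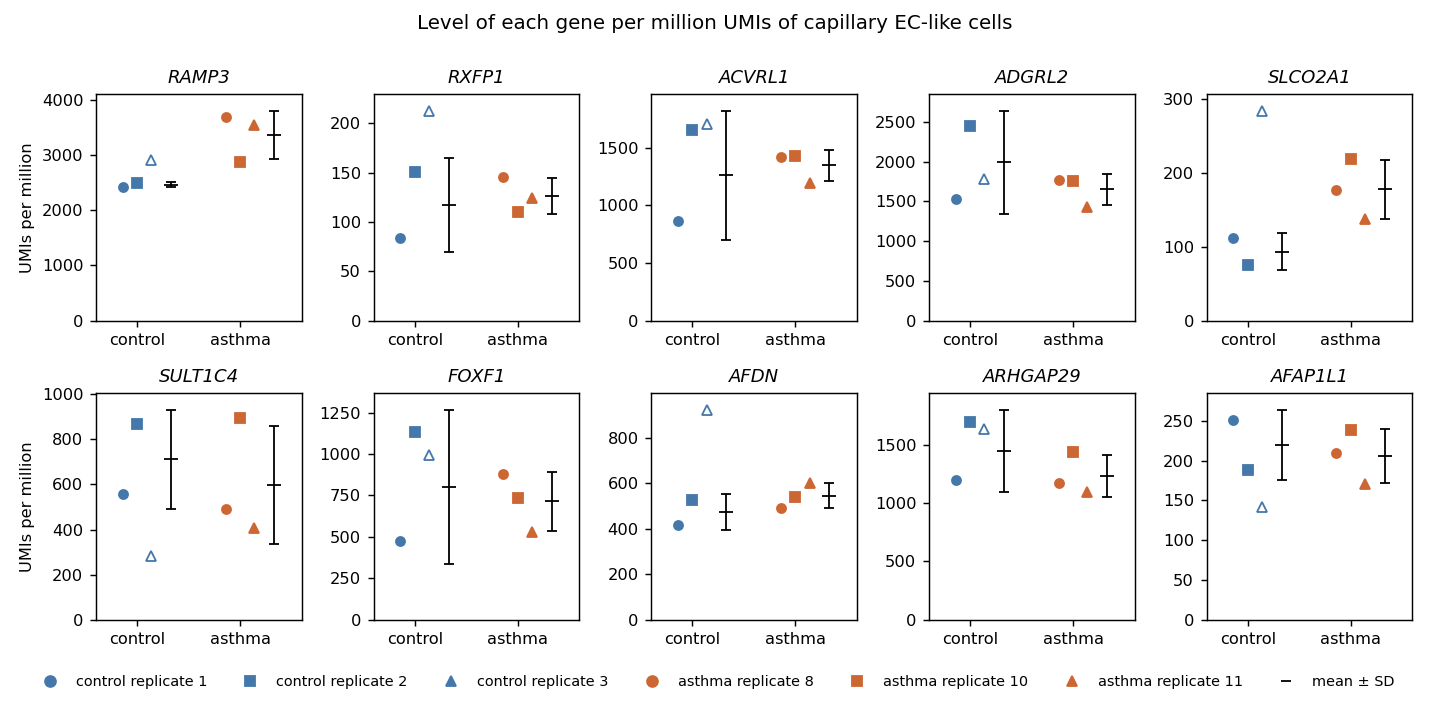
CPM over the capillary EC-like UMIs (vertical axis, linear, one scale per gene) of each of the 10 genes in each library, with bars for the mean ± SD and an open symbol for the control library of 9 capillary EC-like cells, which the bars leave out. With the open symbol counted, control and asthma points overlap for all 10 genes, for RAMP3 by little (2425 to 2911 against 2874 to 3690).

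Capillary EC-like cells fell into 2 sub-clusters, given here because the 10 genes did not take part in clustering. One, led by SEMA3G, TMEM88 and CD36, held 342 cells (4, 0 and 3 in control and 78, 70 and 187 in asthma). The other, led by ACE, EDNRB, HPGD and PRX, held 334 cells (8, 13 and 6 in control and 100, 116 and 91 in asthma), and SULT1C4 was among its 10 leading genes. Levels are given within asthma replicates 8, 10 and 11, since libraries differ in their mix. SULT1C4 was at 646, 1227 and 995 CPM in the ACE and EDNRB-led and 251, 288 and 144 in the SEMA3G-led cells. RAMP3 was at 4409, 3174 and 4638 against 2582, 2327 and 3047. These genes were higher in the ACE and EDNRB-led cells of each library. So were ADGRL2, at 2136, 2048 and 1973 against 1202, 1218 and 1183, and SLCO2A1, at 221, 258 and 188 against 108, 146 and 115. FOXF1 showed the same order, at 940, 828 and 732 against 793, 564 and 437.

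RXFP1 showed the opposite order, at 232, 151 and 148 CPM in the SEMA3G-led against 89.5, 87.5 and 70.1 in the ACE and EDNRB-led cells, higher in the SEMA3G-led cells of each. AFDN was at 611, 542 and 603 against 416, 539 and 601, apart in asthma replicate 8 and nearly level in the other 2. The 2 sub-clusters had 7 and 27 control cells, so no control value is read from them.

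Over all EC-like cells, where the capillary share enters the values, the 10 genes were again apart. RAMP3 had 366, 368 and 139 CPM of the EC-like UMIs in control and 1979, 2124 and 2597 in asthma, ACVRL1 356, 399 and 284 against 1016, 1177 and 1021, and ADGRL2 264, 388 and 76.1 against 985, 1313 and 1061. Control replicate 3, whose EC-like cells were mostly larger-vessel EC-like (80 of 99), was the lowest library for all 3. Their log2 differences were 2.78 ± 0.34, 1.45 ± 0.19 and 2.09 ± 0.45. The smallest difference was that of AFDN, at 392, 419 and 333 in control and 468, 527 and 539 in asthma, a log2 of 0.23 ± 0.18.

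Among the 7726 genes of this fit, 2.6% were called up and 3.25% down (201 and 251 genes), and 14.3% had every asthma library above every control library. Together 5.85% of the genes were called. Of the 10 genes, 7 were called up and 10 showed no overlap, with SULT1C4, AFDN and AFAP1L1 not called, and nothing is read from these counts. Leaving out 1 library moved the total of 452 calls to 143 (control replicate 1), 95 (control replicate 3), 35 (asthma replicate 10) or 69 (asthma replicate 11). Scaling by totals alone gave 421 up and 153 down. The number of the 10 that were called fell to 3 without asthma replicate 10 and to 4 without control replicate 1, control replicate 3 or asthma replicate 11.

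In larger-vessel EC-like cells some of the 10 genes were also higher in asthma. ACVRL1 was at 312, 249 and 270 CPM in control and 626, 564 and 716 in asthma, and RXFP1 at 0, 0 and 3.42 against 27.9, 39.0 and 26.4 (2 against 27 UMIs). RAMP3 was at 73.6, 28.8 and 5.13 against 100, 186 and 145. For these 3 genes and for ADGRL2, SULT1C4 and ARHGAP29 each asthma library was above the control libraries, at levels below those of capillary EC-like cells in the same library, while SLCO2A1, FOXF1, AFDN and AFAP1L1 overlapped. Of 3635 genes that passed the filter on low counts in these cells, 10.2% showed this pattern and 4.26% its reverse (7.51% and 6.46% after TMM scaling). RXFP1 and SULT1C4 did not pass that filter, and 4 of the 8 genes that did showed the pattern under both scalings. The 10 genes were chosen on libraries that hold these cells, so nothing is read from the count. Whether capillary cells placed in this subtype carry these UMIs was not tested.

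Outside EC-like cells, UMIs of 8 of the 9 genes that could be tested were still higher in every asthma library, in a fit in which 8.91% of 14178 genes showed this pattern and 0% were called (0 genes with edgeR, 1577 at an unadjusted p under 0.05, and 412 or 1.93% with DESeq2). DESeq2 called 1.5% of all genes higher in asthma, 7 of the 10 genes among them, and nothing is read from that count. RAMP3 had 0.117, 1.97 and 0.336 CPM in control and 8.64, 6.01 and 12.3 in asthma. Control replicate 2 stood out, and of its 48 UMIs 35 lay in 26 of 80 Fib-like (fibroblast) cells. Of the 741 UMIs of the asthma libraries, 491 lay in stromal sub-clusters set apart as mixed (markers of another class led there), against 11 of 61 in control. The log2 difference was 3.37 with control replicate 2 and 5.22 without it. ADGRL2 was at 5.11, 4.80 and 6.47 in control and 15.6, 13.4 and 23.6 in asthma, and AFDN at 26.3, 23.1 and 28.9 against 76.7, 64.9 and 53.8.

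ACVRL1 was the exception, at 14.8, 13.0 and 10.1 in control and 21.1, 18.0 and 13.3 CPM in asthma, where the groups overlapped. Macrophage-like cells, at 31.8 ± 4.96 CPM, held 1965 of its UMIs. RXFP1 had 0, 2 and 1 UMIs outside EC-like cells in control and 4, 14 and 10 in asthma, too few for the fit. Outside EC-like cells the summed level of 23 pan-endothelial genes, led by PECAM1, was 390, 384 and 470 in control and 775, 504 and 627 CPM in asthma, without overlap. The 24 capillary and aerocyte genes, led by RGCC, were at 674, 395 and 342 against 524, 472 and 419, and the 19 larger-vessel genes, led by CLU, at 192, 249 and 467 against 694, 439 and 621, with overlap in both lists, and no gene of these 3 lists was at 0. RGCC, at means of 368 in control and 231 in asthma, made up much of the capillary sum. Of the 19 capillary and aerocyte genes tested there, 9 were above without overlap and 0 below, with a median log2 difference of 1.21. Above without overlap were also 8 of 20 pan-endothelial and 1 of 16 larger-vessel genes, against 8.91% of all genes. The part of these lists in the values of the 10 genes was not tested.

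The other genes of the pathways were read from lists in the whole-library fit, where the median log2 difference over all 14769 genes was -0.01. Of 22 tested capillary and aerocyte genes, 1 passed the test, namely KDR, with 4.49 ± 0.387 and 21.4 ± 1.59 TMM-scaled CPM (log2 2.26, edgeR adjusted p = 0.0263). In 15 of them the asthma libraries were all above the control libraries, against 10.3% of all genes tested, and the median of the list was 1.62. Its most abundant gene, RGCC, a regulator of the cell cycle, had a log2 difference of -0.74, and HPGD had 3.29 (edgeR adjusted p = 0.0636). Of 22 pan-endothelial genes, 1 passed, the water channel AQP1, with 52.7 ± 7.83 and 215 ± 38.9 (log2 2.03, edgeR adjusted p = 0.0443). In 14 of these 22 genes the asthma libraries were all above the control libraries, against the same 10.3% of all genes. The median of the pan-endothelial list was 1.36, and PECAM1, a junctional adhesion molecule, was at 0.32 and RAMP2, the sister co-receptor of RAMP3, at 1.15.

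The 16 larger-vessel and the 8 lymphatic endothelial genes had 0 calls each, with medians of 0.63 and -0.55. In each list 3 genes were above without overlap and 0 below (10.3% and 7.95% of all genes). VWF and CPE were at 0.35 and 0.71, and MMRN1 at -0.62. Summed over the library, capillary and aerocyte genes had 714, 447 and 446 CPM in control and 803, 784 and 886 in asthma, and the larger-vessel genes 347, 314 and 844 against 994, 728 and 797, where the groups overlapped. The lymphatic genes, led by PDPN (means of 5.84 and 12.8), had 21.4, 24.5 and 43.4 against 44.5, 29.5 and 35.5 and overlapped too.

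The lists around the receptors had 0 calls, in a fit in which 0.0406% of all genes were called, so the counts do not set these lists apart. In the adrenomedullin list 0 of 9 genes passed, with a median of -0.01 (ADM, the ligand, at -0.32 and GNAS, the stimulatory G protein subunit, at -0.01). In that list 2 genes were above and 1 below without overlap (10.3% and 7.95% of all genes). Of the relaxin family only RLN3 had counts enough for a test, at -0.73. In the list of BMP9 and ALK1 signalling 0 of 22 passed, 6 were above without overlap (10.3% of all genes) and the median was 0.60, and the target genes ID1, ID2 and ID3 were at 1.39, -0.23 and 0.62. Of 10 latrophilins and ligands 0 passed and 4 were above without overlap (10.3% of all genes), with a median of 0.86 and 1.34 for UNC5B.

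Lists around the other members also had 0 calls. Of 18 prostaglandin genes 0 passed, with a median of 0.38 and 0.67 for the synthase PTGDS. Of 4 sulfotransferase genes 0 passed, with 0.88 for PAPSS2, which makes the sulfate donor. Endothelial transcription factors had 0 of 19 called, a median of 0.54 and 1.49 for EPAS1, and -0.54 for ETS1. Rap1 and junction genes had 0 of 27 called, 14 above and 1 below without overlap (10.3% and 7.95% of all genes) and a median of 0.50. AFAP1 and stress-fibre genes had 0 of 12 called and a median of 0.07. Above without overlap, against the same 10.3%, were 3 prostaglandin, 1 sulfotransferase, 6 transcription factor and 2 stress-fibre genes. Below, against the same 7.95%, were 1 prostaglandin gene and 1 transcription factor. A list of 19 immediate-early and stress genes, which dissociation can induce, had 0 calls, 1 gene above and 5 below without overlap (10.3% and 7.95% of all genes), a median of -0.39 and -0.45 for FOS.

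In the EC-like fit, 2.6% of all genes were called up and 3.25% down, and the share of capillary cells among EC-like cells, which differed between the groups (12 of 45, 13 of 34 and 9 of 99 in control and 178 of 256, 186 of 235 and 278 of 345 in asthma), enters all its values. Its part in the list counts was not tested, and without asthma replicate 10 the 452 calls over all genes fell to 35. Of 18 capillary and aerocyte genes 5 rose and 0 fell, with log2 differences of 4.68 for CA4, 2.41 for ADGRF5, 2.39 for PRX, 2.34 for TMEM100 and 1.52 for CLIC5. Of 16 larger-vessel genes 4 fell and 0 rose, with -2.27 for BGN, -1.68 for CPE, -1.39 for SELP and -1.24 for VWF. CA4 was at 36.3, 16.1 and 14.7 TMM-scaled CPM in control and 200, 1060 and 389 in asthma, and VWF at 3810, 4844 and 4011 against 2452, 1464 and 1442. Neither gene overlapped between the groups. The lymphatic genes RELN and MMRN1 fell by 1.94 and 1.75 (2 of 7).

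In the other lists of this fit, with the same 2.6% and 3.25% of all genes called and the same mix of vessel types, the following genes passed. EPAS1, NOSTRIN and FLT1 rose among 20 pan-endothelial genes (log2 1.96, 2.12 and 0.94), and TBX3 and ETS1 rose and FOXC1 fell among 17 transcription factors that also hold EPAS1 (2.15, 1.47 and -1.79). PTGS2, the inducible prostaglandin synthase, fell by 3.46, from 134, 37.6 and 144 to 9.61, 11.7 and 9.13 TMM-scaled CPM, and PTGR1, which reduces prostaglandin metabolites, rose, with 0, 0 and 13.1 in control and 46.1, 75.4 and 50.2 in asthma (2 of 9 prostaglandin genes). RAPGEF1 and RAPGEF5, exchange factors for Rap1, rose by 1.10 and 0.99 (2 of 22). ACVR1 fell by 1.22 (of 19 BMP genes, with TMEM100 up), 4 of 11 AFAP1 and stress-fibre genes fell (with FLNA, ACTN1 and AFAP1L2 at -1.34, -1.22 and -1.18), and NR4A1 fell by 1.91 (1 of 17 immediate-early genes). The other lists tested had 0 calls in EC-like cells, and no gene of the relaxin list had counts enough for this fit.

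Genes with a profile like that of the 10 were searched among 11935 genes over 16 cell classes and subtypes. The points share libraries and depth, so the correlations are a description. PRRG1 (Pearson r = 0.956), TANC1 (0.947), RBMS2 (0.942), HMBOX1 (0.935) and the type II BMP receptor BMPR2 (0.921) were nearest to the mean profile. The nearest genes of single members were RAPGEF4 for RAMP3 (0.995), CYP1A1 for RXFP1 (0.995), the endothelial gene EGFL7 for ACVRL1 (0.973), TLE2 for ADGRL2 (0.957), L1CAM for SLCO2A1 (0.986), KHDRBS3 for SULT1C4 (0.934), ENAH for FOXF1 (0.931), RDX for AFDN (0.934), the tight junction protein TJP1 for ARHGAP29 (0.978) and HID1 for AFAP1L1 (0.967). Among the 10 themselves r ran from 0.434 (SULT1C4 and AFDN) to 0.948 (RXFP1 and SLCO2A1).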

How the data were processed

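Lung cells of 3 control and 3 asthma monkeys were profiled with 10x Genomics 3′ libraries. The authors aligned reads to macFas6 with Cell Ranger (version 4.0.0 in the file headers and 2.1.1 in the submitters' processing notes, with yet another version in the study's methods) and deposited unnormalized UMI counts per gene and barcode, for 28623 genes. No other per-sample column was left unused (0). The members and the gene lists were chosen with earlier results of these data known.

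Barcodes with more than 500 and under 5000 genes, 500 UMIs or more and no more than 25% of UMIs in 37 mitochondrial genes were kept. Cells were scaled to 10000 UMIs, and 2000 variable genes (without the 10 members), 10 principal components and 20 neighbours entered Leiden clustering at resolution 0.8 (scanpy 1.11.5, leidenalg 0.10.2, Python 3.11.15). A class or subtype needed 3 markers with a log2 fold of at least 1 in at least 10% of cells. A sub-cluster in which another class's markers led was set apart as mixed. The authors' annotation was not used here, so names may differ from theirs. Doublets were kept. Scrublet's own threshold marked 10 cells, and 19 capillary EC-like cells were in the set with the highest scores.

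UMIs were summed per library and class (at least 10 cells, at least 2 libraries a group) and tested with edgeR 4.0.16 (quasi-likelihood, TMM, filterByExpr, R 4.3.3) with Benjamini-Hochberg adjustment, over all genes, with the library as the replicate. Shares were compared by a two-sided exact permutation test over 20 assignments, whose smallest p is 0.1. The text names all 10 members, and of each list every gene that passed in the whole-library fit (up to 6 by fold change), up to 3 that did not pass, by mean level, and those that passed in EC-like cells. Of the genes this rule selects, 1 is counted but not reported by name here. It also names the 5 genes (100 UMIs or more, log2(CPM + 10)) nearest to the mean profile and the nearest to each member. Lists were capillary and aerocyte, pan-endothelial, larger-vessel and lymphatic endothelial, adrenomedullin, relaxin, BMP9 and ALK1, prostaglandin, sulfotransferase, endothelial transcription factor, latrophilin, Rap1 and junction, AFAP1 and stress-fibre, and immediate-early genes. In simulated data the whole-library fit recovered 48.5% of genes changed by a log2 of 1 and 99.5% of those changed by 2. The simulations drew counts around pooled means with a fixed dispersion, not with the spread between these monkeys. They therefore do not give the power of the fits in these data.

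Alternatives were DESeq2 1.42.0, scaling by totals, no filter on low counts, quality-controlled cells only, a mitochondrial maximum of 10%, a resolution of 1.6, 1141 likely doublets left out, EC-like cells by a gate of 3 markers, and each library left out in turn. Keeping the control library of 9 capillary EC-like cells, dividing the capillary part into share and level, and counting genes without overlap in larger-vessel EC-like cells were chosen after seeing the data.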

Additional observations from a re-analysis of the deposited data

How the results depend on the processing

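No paired analysis was possible because the control and asthma monkeys share no replicate number. The difference of all 10 genes over the whole library stayed positive under every alternative of that fit, but the count of genes that passed did not hold. It was 6, and 719 with DESeq2, 13 with totals in place of TMM, 27 with no filter on low counts and 12 in quality-controlled cells only, and 0 to 43 with 1 library left out. The cause was not tested. Outside EC-like cells it was 0, 412 with DESeq2 and 0 to 1 with 1 library left out. In EC-like cells it was 452, 1014 with no filter and 35 to 445 with 1 library left out. In capillary EC-like cells it was 0, 5 with DESeq2, 1 with totals, 21 with no filter and 0 to 3 with 1 library left out. Totals in place of TMM moved the median log2 difference of all genes by 0.12 over the whole library and outside EC-like cells, by 0.22 in EC-like cells and by -0.26 in capillary EC-like cells.

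The median part of the difference that lay in EC-like cells was 71.8%, and 51.0% with a mitochondrial maximum of 10%, where EC-like cells with a larger mitochondrial share count among the failed barcodes. It stayed between 68.3% and 76.5% with 1 library left out, and at 71.3%, 71.1% and 70.6% with the finer clustering, without likely doublets and with the marker gate. The differences in EC-like and capillary EC-like shares kept their direction in every alternative run. Of the log2 differences of single genes, 2 moved by more than the spread between replicates over the whole library and 98 did not, against 5 and 112 outside EC-like cells, 2 and 128 in EC-like cells and 11 and 99 in capillary EC-like cells. With a mitochondrial maximum of 10% no control library kept 10 capillary EC-like cells, so that fit was not run, and the marker gate was not used for the capillary subtype. The 34 capillary EC-like cells of the control group limit every level within them.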
